A study of Homo sapiens with 12 samples.

Results

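Genes of the hepatic acute phase response and of interleukin 6 (IL6) signalling were followed in Huh7 and Hep3B, established human hepatocellular carcinoma lines grown under hypoxia for 24 h. The 10 genes were taken by symbol from both deposited gene tables, which list 62703 genes: the secreted proteins HP, HPR, HPX, ORM1, ORM2, SAA1 and SERPINA3, the receptor IL6R, the transcription factor STAT3 and the feedback inhibitor SOCS3. Each symbol matched 1 row. The 4 groups, of 3 libraries each, were Huh7 and Hep3B with the control hairpin shNC and the same lines with shSLC6A8, a hairpin that targets the creatine transporter gene SLC6A8. All 12 libraries were hypoxic, so no comparison with normal oxygen could be made, and the labels name 1 knockdown hairpin, so effects of its sequence other than on SLC6A8 cannot be told apart from the knockdown. Nothing in the labels says that the libraries of a group came from separate cultures, so the spread behind each p-value is that of these libraries and could be technical.

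In the liver, IL6 binds its receptor IL6R, and the complex engages the shared signalling chain gp130, encoded by IL6ST. Janus kinases then phosphorylate STAT3, which enters the nucleus and, with C/EBP factors, raises transcription of the positive acute phase proteins in hepatocytes. SOCS3 is itself a target of STAT3 and blocks signalling at gp130, closing a feedback loop. HP binds free haemoglobin, HPR is its primate-specific relative carried on lipoprotein particles, HPX binds free haem, ORM1 and ORM2 are the orosomucoids that carry drugs and lipids in plasma, SAA1 is an apolipoprotein of inflammation, and SERPINA3 inhibits chymotrypsin-like proteases.

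The sequence before the start of transcription is shown for 4 members, because ORM1 stands for the members that changed in opposite directions in the 2 lines and SERPINA3, HPX and SOCS3 were higher in the knockdown of both. RefSeq's promoter table on build GRCh38.p14 held 6 of the 10 members (HPX, ORM1, SERPINA3, IL6R, STAT3 and SOCS3). Each sequence below is the 250 bases before the annotated start, read 5′ to 3′ on the strand of the gene. Capitals mark matches, on either strand, to a STAT-type letter pattern with short spacing (TTCNNGAA), to the type 2 IL6 response element (CTGGGAA) or to a C/EBP pattern (TTNNGNAAT). ORM1 lies on chr9:114322848-114323097 (plus strand), SERPINA3 on chr14:94612141-94612390 (plus), HPX on chr11:6440988-6441237 (minus) and SOCS3 on chr17:78360926-78361175 (minus).
ORM1: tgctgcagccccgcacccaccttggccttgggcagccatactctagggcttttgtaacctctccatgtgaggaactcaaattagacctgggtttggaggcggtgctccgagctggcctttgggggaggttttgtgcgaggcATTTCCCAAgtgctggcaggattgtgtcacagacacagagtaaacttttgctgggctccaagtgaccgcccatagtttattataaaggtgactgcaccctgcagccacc
SERPINA3: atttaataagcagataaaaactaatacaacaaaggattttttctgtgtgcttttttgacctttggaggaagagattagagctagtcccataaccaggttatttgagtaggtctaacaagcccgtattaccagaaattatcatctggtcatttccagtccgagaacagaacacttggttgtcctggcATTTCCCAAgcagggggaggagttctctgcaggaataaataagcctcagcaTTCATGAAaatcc
HPX: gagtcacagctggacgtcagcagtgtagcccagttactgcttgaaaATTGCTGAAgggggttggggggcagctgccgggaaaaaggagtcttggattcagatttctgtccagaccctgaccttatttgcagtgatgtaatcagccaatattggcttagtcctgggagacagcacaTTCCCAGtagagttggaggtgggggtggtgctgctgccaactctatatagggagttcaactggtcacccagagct
SOCS3: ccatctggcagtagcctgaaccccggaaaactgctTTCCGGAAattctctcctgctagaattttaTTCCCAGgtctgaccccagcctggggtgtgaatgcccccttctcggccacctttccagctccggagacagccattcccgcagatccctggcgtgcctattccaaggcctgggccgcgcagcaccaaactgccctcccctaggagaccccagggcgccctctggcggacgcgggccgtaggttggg

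The C/EBP match had the same 9 letters, ATTTCCCAA on the strand shown, in ORM1 at positions -109 to -101 from the start and in SERPINA3 at positions -64 to -56. SERPINA3 also held TTCATGAA at positions -13 to -6, and SOCS3 held TTCCGGAA at positions -215 to -208. HPX and SOCS3 each held TTCCCAG, the reverse complement of the type 2 element, at positions -75 to -69 and -185 to -179. No 2 of these matches overlapped. Over the 6 members, 4 held the short-spaced STAT pattern, 3 the C/EBP pattern and 2 the type 2 element, against 6.62%, 9.85% and 9.15% of all 35116 promoter windows of this length. The STAT pattern with 3 free letters (TTCNNNGAA, in 6.57% of windows) and the hypoxia response core (ACGTG, in 18.5%) were found in 0 of the 6. The matches describe letters in these windows and were not tested for binding.

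Several members share sequence with a neighbour, which bears on how their reads were assigned. HP (chr16:72054505-72061055) and HPR (chr16:72063226-72077246) lie 2170 bases apart, and ORM1 (chr9:114323098-114326479) and ORM2 (chr9:114329869-114333251) lie 3389 bases apart. In GENCODE 29, 37.2% of the 50-base windows of the longest HPR transcript were found letter for letter in an HP transcript, 50.2% of those of ORM2 in ORM1, and 54.2% of those of SAA1 in its neighbour SAA2. The deposited counts are estimates, and the part given to one copy rests on that estimate. HP alone was a whole number, to within 0.015 of a count, in 5 of 12 libraries, whereas HP and HPR together were whole in 12 of 12. ORM1 alone was whole in 1 of 12 libraries and the sum with ORM2 in 12 of 12, while SAA1 and SAA2 together were whole in 9 of 12. Sums over a pair were therefore tested beside the single genes. SERPINA3 (chr14:94612391-94624053) was whole in 0 of 12 libraries, and in 9 of 12 when summed with ENSG00000273259, a gene model whose transcript overlaps it. The remaining members are HPX on chr11:6431049-6440987, SAA1 on chr11:18266264-18269967, IL6R on chr1:154405343-154469450, STAT3 on chr17:42313324-42388442 and SOCS3 on chr17:78356778-78360925.

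The libraries held 21065965 to 28078068 estimated counts each. SLC6A8 fell from 36.4 ± 0.69 to 9.42 ± 1.39 CPM (counts scaled to a common library size; SD, n = 3) in Huh7 and from 370.4 ± 8.24 to 34.5 ± 0.62 in Hep3B, so each knockdown matched its label. All 8 hepatocyte and hepatocellular carcinoma markers averaged 1 CPM or more in each group. CPM here are scaled within each line by the trimmed mean of M values (TMM), and the authors' TPM, an abundance that accounts for transcript length, is used to compare levels between genes.

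Per length, the orosomucoids stood above the other members in the controls. ORM1 averaged 679 ± 26.7 TPM (SD, n = 3) in Huh7 and 326 ± 14 in Hep3B, and ORM2 averaged 277 ± 11.3 and 88.3 ± 7.39. In the Huh7 controls HPX (31.5 ± 4.90 TPM), STAT3 (24.3 ± 3.13) and IL6R (21.4 ± 2.03) came next, with the libraries of STAT3 and IL6R overlapping. SAA1 (5.78 ± 0.69), HP (4.79 ± 0.80) and SERPINA3 (4.41 ± 0.37) followed in that order but with overlapping ranges between neighbours, above SOCS3 (1.66 ± 0.05) and HPR (0.117 ± 0.076). In the Hep3B controls STAT3 (24.5 ± 3.13 TPM) ranked after the orosomucoids, then HPX (14.4 ± 1.84) and SERPINA3 (13.9 ± 0.46), which overlapped, then IL6R (3.50 ± 0.33) and HP (1.10 ± 0.33). SOCS3, HPR and SAA1 were at 0.347, 0.293 and 0.140 TPM there, and neighbours in that order overlapped. After knockdown HPX stood above ORM2 in Hep3B, at 41.5 ± 3.04 against 30.7 ± 2.49 TPM.

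**Figure D1:**
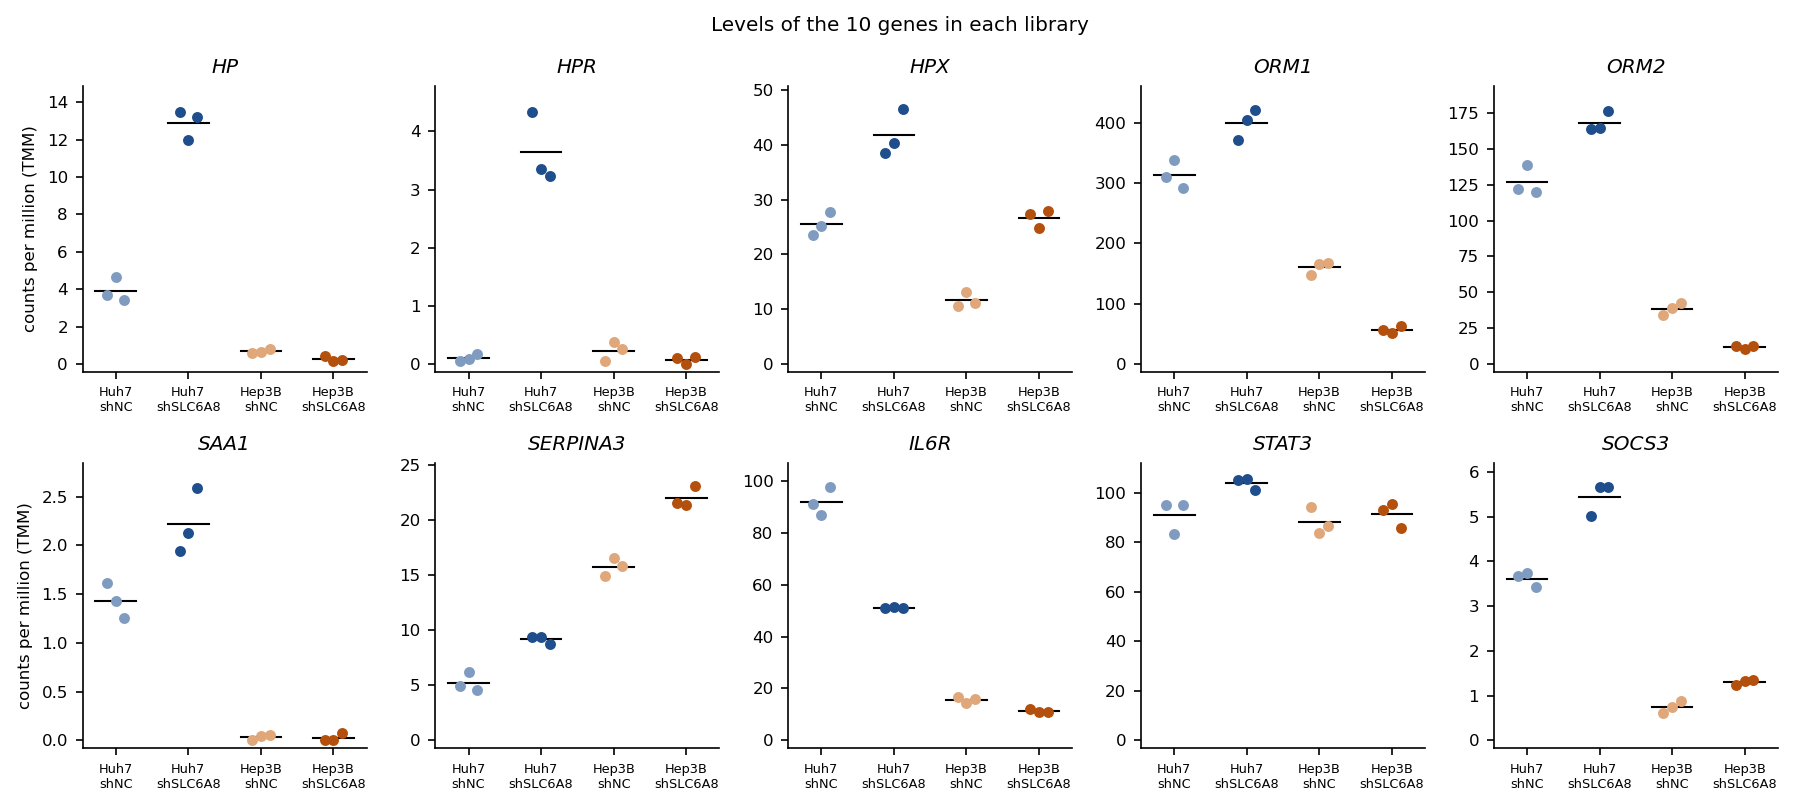
Level of each of the 10 genes in the 12 libraries, in TMM-scaled CPM on linear axes from 0. Points are libraries, bars are means of 3; ORM1 lies near 399 in Huh7 shSLC6A8 and near 57.0 in Hep3B shSLC6A8, on opposite sides of its controls.

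SLC6A8 knockdown in Huh7 was accompanied by higher levels of the 7 secreted acute phase members and of STAT3 and SOCS3, and by a lower level of the receptor IL6R. In edgeR's quasi-likelihood test with Benjamini-Hochberg adjustment, all 10 members were tested. At an adjusted p under 0.05, 9 were higher and 1 was lower. In this comparison 61.8% of the 17022 genes tested were called, 30.9% higher and 31% lower, so a call in itself was the common outcome. Of these calls 49.9% were higher, and 66.1% were on the log2 TPM scale, which shifts the median of all genes to 0.17. The median log2 change of the members was 0.62 and that of all genes was 0.00. HPR passed the filter on low counts through its knockdown libraries, so its call was fixed by its passing, and it adds nothing to that count. In bulk RNA a change in level per cell and a change in the share of cells that express a gene cannot be told apart.

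The haemoglobin-binding pair showed the members' widest change in Huh7. HP held 82.0, 105 and 81.9 estimated counts in the 3 control libraries and 333, 349 and 348 in the 3 knockdown libraries. All knockdown libraries lay far above all control libraries. The level rose from 3.92 ± 0.66 to 12.9 ± 0.82 CPM, a log2 change of 1.72 ± 0.13 (SE; adjusted p = 4.08e-09, edgeR). HPR was close to absent in the controls, with 1, 2.05 and 4.10 estimated counts, and reached 107, 97.9 and 85.2 with the knockdown. Its pooled level was 35.6-fold higher, with a 95% interval of 17 to 89.2 that covers counting error only. The share of the pair's counts assigned to HPR was 1.20%, 1.92% and 4.77% in the controls and 24.2%, 21.9% and 19.7% in the knockdown. The 2 sets of shares did not overlap, and the exact two-sided permutation p of 0.10 is the smallest that 3 against 3 libraries can give. Summed, HP and HPR held 83, 107 and 86 counts in the controls and 440, 447 and 433 in the knockdown, a log2 change of 2.04 ± 0.12 (adjusted p = 2.69e-10), and this rise of the pair does not rest on how reads were split between the copies.

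HPX, the haem scavenger, rose by a smaller factor from a higher level. Its control libraries held 23.5, 25.3 and 27.8 CPM and its knockdown libraries 38.5, 40.3 and 46.6. The groups were apart, with a log2 change of 0.71 ± 0.08 (adjusted p = 9.53e-07). The orosomucoids rose least among the secreted members. ORM1 held 310, 339 and 292 CPM in the controls and 372, 406 and 421 in the knockdown, which gave a log2 change of 0.35 ± 0.06 (adjusted p = 6.88e-05). ORM2 went from 122, 139 and 120 to 164, 165 and 176 CPM, a log2 change of 0.41 ± 0.06 (adjusted p = 9.15e-06). In both genes the lowest knockdown library lay above the highest control library, and ORM2 kept a like share of the pair's counts, 28.8 ± 0.48% in the controls and 29.7 ± 0.86% in the knockdown (SD, n = 3).

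SERPINA3 and SAA1 had low levels in Huh7. SERPINA3 held 4.96, 6.19 and 4.55 CPM in the controls and 9.40, 9.39 and 8.74 with the knockdown. The knockdown libraries lay close together above all controls, and the log2 change was 0.81 ± 0.13 (adjusted p = 3.49e-05). SAA1 held 36.4, 32 and 30.5 estimated counts in the controls and 48.0, 62.2 and 68.5 in the knockdown. The groups did not overlap in CPM and the log2 change was 0.64 ± 0.23 (adjusted p = 0.0239), but the call was lost in 5 of 18 other settings, among them the fit without shNC replicate 3 (adjusted p = 0.0857) and the fit without shSLC6A8 replicate 3 (adjusted p = 0.102). Summed with SAA2, it rose by 0.91 ± 0.18 on the log2 scale (adjusted p = 3.16e-04). SAA2 alone rose by 1.23 ± 0.26 (adjusted p = 6.40e-04). CRP, the acute phase protein most used in the clinic, averaged at most 0.063 CPM in any group and was not tested.

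**Figure D2:**
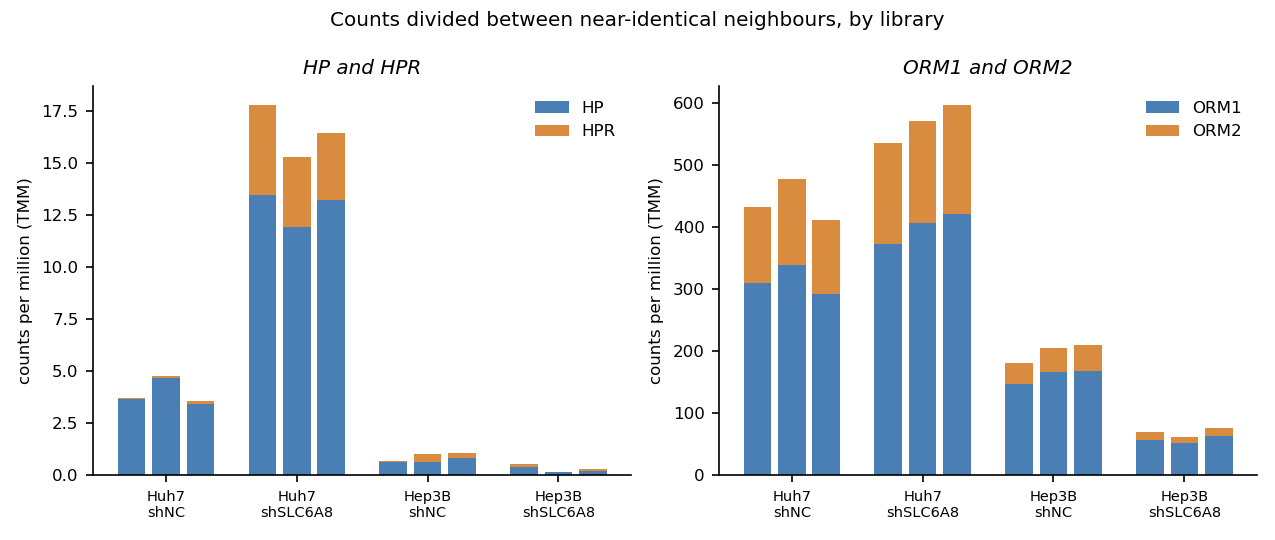
CPM of HP with HPR and of ORM1 with ORM2, stacked from 0, in each of the 12 libraries; the height of a bar is the sum of the pair. The HP and HPR bars rise in Huh7 with a larger HPR part in the knockdown libraries, and the ORM1 and ORM2 bars rise in Huh7 and fall in Hep3B with much the same division.

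In Hep3B the secreted members divided. HPX and SERPINA3 rose and ORM1, ORM2 and the few HP counts fell, while HPR and SAA1 were too low to be tested. Of the 8 members tested, 3 were higher, 4 were lower and STAT3 did not pass, in a comparison in which 40.1% of 16181 genes were called, 18.9% higher and 21.2% lower. HP passed the filter here through its control libraries, where it was higher, so it adds nothing to the count of 4 lower. Of all calls 47.2% were higher, against 76.2% when libraries were scaled by their totals and 76.1% in TPM, which shift the median of all genes to 0.20 and 0.21. Under each of these scalings the tested members kept their directions in both lines. The members' median log2 change was -0.20 against 0.01 over all genes.

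The orosomucoids, the most abundant members, fell in Hep3B. ORM1 held 147, 166 and 168 CPM in the controls and 56.9, 51.3 and 62.9 in the knockdown. Its log2 change was -1.49 ± 0.08 (adjusted p = 4.60e-07). ORM2 held 33.8, 39.3 and 42.7 CPM in the controls and 12.6, 10.1 and 12.2 in the knockdown. Its log2 change was -1.72 ± 0.11 (adjusted p = 1.67e-06), and for both genes the groups were far apart. The sum of the pair fell by 1.53 ± 0.08 on the log2 scale (adjusted p = 4.52e-07). ORM2 held 19.4 ± 0.84% of the pair's counts in the controls and 17 ± 1.01% in the knockdown, with an exact two-sided permutation p of 0.10, the smallest possible.

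HPX moved the other way in the same libraries. It held 10.7, 13.2 and 11.2 CPM in the controls and 27.4, 24.9 and 27.9 in the knockdown, a log2 change of 1.19 ± 0.10 (adjusted p = 7.79e-06). The knockdown libraries all lay above the controls. SERPINA3 held 14.9, 16.5 and 15.8 CPM in the controls and 21.5, 21.3 and 23.1 in the knockdown, without overlap, and its log2 change was 0.48 ± 0.08 (adjusted p = 8.70e-04). The overlapping gene model took 14.5% to 19.2% of the summed counts in the Hep3B controls and 17.7% to 19.4% in the knockdown. With that model's counts added, an alternative chosen after seeing the data, SERPINA3 changed by 0.52 ± 0.07 on the log2 scale (adjusted p = 2.90e-04) in Hep3B and by 0.89 ± 0.12 (adjusted p = 8.61e-06) in Huh7.

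Haptoglobin transcripts were scarce in Hep3B. HP held 12.9, 13.9 and 16 estimated counts in the controls and 12, 4 and 5 in the knockdown. The groups did not overlap in CPM, the pooled level was 2.66-fold lower with a counting interval of 1.55 to 4.72, and the log2 change of -1.41 ± 0.44 had an adjusted p of 0.0290. HP passed the filter through its control libraries, where it was higher, so its call adds nothing to the count of lower members. Of 18 other settings 8 lost the call, including the fits without shNC replicate 1, 2 or 3 (adjusted p 0.0523, 0.0710 and 0.0982) and without shSLC6A8 replicate 2 or 3 (0.0905 and 0.0898). HPR held 1.12, 8.13 and 5 estimated counts in the controls and 3, 0 and 3 in the knockdown, which overlapped. SAA1 held between 0 and 2 estimated counts in the 6 Hep3B libraries, under the floor of 3 counts, and no fold is given.

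The IL6 receptor was lower in the knockdown of both lines. In Huh7, IL6R held 91.2, 87.0 and 97.7 CPM in the controls and 51.1, 51.4 and 50.8 in the knockdown. The knockdown libraries lay close together and far below the controls, with a log2 change of -0.85 ± 0.06 (adjusted p = 1.05e-09). In Hep3B it held 16.6, 14.5 and 15.8 CPM in the controls and 12, 11 and 11.1 in the knockdown. These groups were also apart, with a log2 change of -0.46 ± 0.09 (adjusted p = 0.00268), although on the log2 TPM scale the change was -0.20 with an adjusted p of 0.363, and with library totals it was -0.27. In Huh7 the IL6R change was -0.49 on the log2 TPM scale, with the call kept.

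STAT3 transcripts changed little on the TMM scale. In Huh7 the controls held 95.2, 83.2 and 94.9 CPM and the knockdown libraries 105, 106 and 101, a log2 change of 0.19 ± 0.06 (adjusted p = 0.00941). In Hep3B the controls held 94.1, 83.5 and 86.3 CPM and the knockdown libraries 93.0, 95.5 and 85.6. These overlapped, and the log2 change of 0.05 ± 0.06 did not pass (adjusted p = 0.535). Other scalings gave larger rises. In TPM the Huh7 change was 0.48, and with library totals the Hep3B change was 0.24 and called (adjusted p = 0.0159, edgeR). Transcript levels carry no information on STAT3 phosphorylation.

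SOCS3, which blocks signalling at gp130, was higher in the knockdown of both lines. In Huh7 it held 3.67, 3.74 and 3.42 CPM in the controls and 5.03, 5.65 and 5.66 in the knockdown, a log2 change of 0.60 ± 0.14 (adjusted p = 0.00157). In Hep3B it held 13, 16 and 17 counts in the controls and 36, 35 and 35 in the knockdown. The groups did not overlap, and the log2 change was 0.82 ± 0.27 (adjusted p = 0.0366), but at these counts 9 of 18 other settings lost the call, with adjusted p up to 0.115. Those settings included the fits without shNC replicate 1 or 2 (adjusted p 0.115 and 0.0910) and without shSLC6A8 replicate 1, 2 or 3 (0.0812, 0.0878 and 0.0916).

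**Figure D3:**
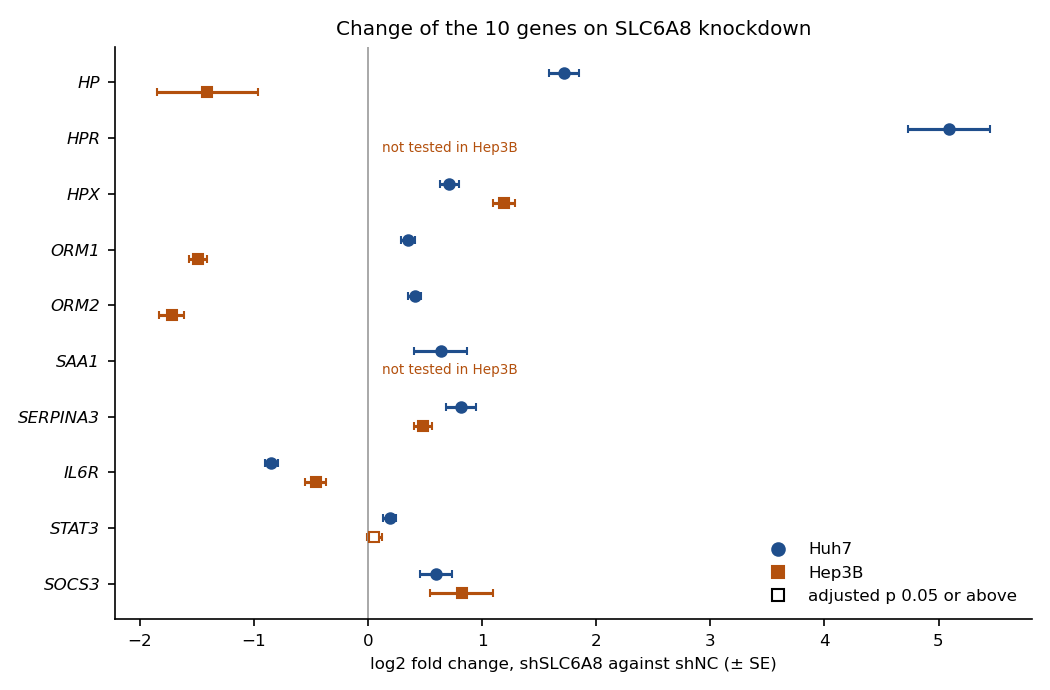
Log2 fold change of each of the 10 genes in shSLC6A8 against shNC, with its standard error, in Huh7 (circles) and Hep3B (squares); open symbols had an adjusted p of 0.05 or above. HP, ORM1 and ORM2 lie right of 0 in Huh7 and left of 0 in Hep3B, whereas HPX, SERPINA3 and SOCS3 lie right of 0 and IL6R left of 0 in both.

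The difference between the lines was tested as an interaction over the 12 libraries, and 6 of the 10 members differed, 2 with a higher and 4 with a lower change in Hep3B than in Huh7. Of the 18570 genes tested in this way 47.1% were called, 23.1% higher and 24% lower. ORM1 differed by -1.84 ± 0.11 on the log2 scale (adjusted p = 1.41e-09) and ORM2 by -2.13 ± 0.13 (adjusted p = 1.35e-09). HP differed by -3.11 ± 0.40 (adjusted p = 5.50e-06) and HPR by -6.63 ± 0.97 (adjusted p = 2.55e-05), the latter resting on 14 control and 6 knockdown counts in Hep3B. HPR passed the filter over the 12 libraries only through Huh7 shSLC6A8, so its call was fixed by its passing and adds nothing to the count of 6. Summed, HP and HPR differed by -3.48 ± 0.39 (adjusted p = 1.39e-06). HPX rose more in Hep3B, by 0.49 ± 0.14 (adjusted p = 0.00745), and IL6R fell less there, by 0.39 ± 0.10 (adjusted p = 0.00351). SERPINA3 (-0.33 ± 0.14, adjusted p = 0.0755), SOCS3 (0.23 ± 0.27, adjusted p = 0.520), STAT3 (-0.13 ± 0.09, adjusted p = 0.255) and SAA1 (-0.95 ± 1.36, adjusted p = 0.608) did not pass, which does not show that they responded alike. Without Huh7 shNC replicate 2, the SERPINA3 difference was -0.46 with an adjusted p of 0.0120, and with the overlapping gene model added it was -0.36 ± 0.14 with an adjusted p of 0.0360.

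Between the control libraries 7 members were lower and 1 higher in Hep3B than in Huh7. That is 80% of the members, in a comparison that called 81.2% of 18570 genes, 39.9% higher and 41.3% lower, so the count is that of genes at large. The lines were deposited in separate tables, so line and table cannot be told apart here. IL6R differed by -2.53 ± 0.07 on the log2 scale (Hep3B minus Huh7), SOCS3 by -2.26 ± 0.20, HP by -2.47 ± 0.23, ORM2 by -1.69 ± 0.09, HPX by -1.10 ± 0.10 and ORM1 by -0.94 ± 0.08, with adjusted p between 2.25e-15 and 3.39e-08. SAA1 passed the filter through the Huh7 libraries alone, so its call was fixed by its passing and adds nothing to the count of 7. It had 99 estimated counts over the 3 Huh7 controls and 2 over the 3 Hep3B controls. The ratio per library total was 46.4, with an interval of 12.5 to 389 that covers counting error only. SERPINA3 was higher in Hep3B by 1.62 ± 0.11 (adjusted p = 2.95e-10). STAT3 differed by -0.02 ± 0.06 (adjusted p = 0.764), and HPR by 1.13 ± 0.75 (adjusted p = 0.173).

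The other genes of the pathway were read from lists of pathway members. Of 24 other genes listed as positive acute phase proteins, 21 were tested in Huh7, where 16 were higher and 2 lower with a median log2 change of 0.57. LBP (0.400 to 1.69 CPM in Huh7) needed its Huh7 shSLC6A8 libraries to pass the filter, in Huh7 and over the 12 libraries. It adds nothing to the 16 higher, to the interaction counts or to the called shares of those comparisons. Whether each listed protein, such as A2M or SAA4, rises in the human acute phase was not checked. In Hep3B 18 were tested, with 2 higher and 15 lower and a median of -0.71. LCN2 (2.02 to 0.124 CPM) and ITIH3 (1.12 to 0.457 CPM) needed their Hep3B control libraries, where they were higher, to pass the filter. HAMP (0.621 to 2.94 CPM) needed its knockdown libraries there. These genes add nothing to the counts of 2 higher and 15 lower or to the called share in Hep3B. In the interaction, 17 of 21 had a lower change in Hep3B and 1 a higher one. The called share was 85.7% in Huh7, 94.4% in Hep3B and 85.7% in the interaction, against 61.8%, 40.1% and 47.1% of all genes. Of all genes, 30.9% were higher and 31% lower in Huh7, and 18.9% and 21.2% in Hep3B. The complement lectin MBL2 changed by 3.23 ± 0.18 in Huh7 (adjusted p = 1.74e-10) and by -1.26 ± 0.28 in Hep3B (adjusted p = 0.00540). The copper carrier ceruloplasmin (CP) changed by 0.91 ± 0.06 and -1.69 ± 0.07, the protease inhibitor A2M by 0.52 ± 0.05 and -1.88 ± 0.06, and angiotensinogen (AGT) by 0.57 ± 0.05 and -1.69 ± 0.05, all called. The fibrinogen chain FGA fell in both lines, by 0.35 ± 0.05 and 0.61 ± 0.05, and the complement inhibitor SERPING1 rose in both, by 0.73 ± 0.05 and 0.26 ± 0.05.

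Most called genes of a list of negative acute phase proteins, which fall during the response, moved with the positive ones in each line. Whether each listed protein falls in the human acute phase was not checked. Of 13 listed, 11 of the 12 tested were higher in Huh7 and 0 lower, with a median log2 change of 0.49. RBP4 was called there with overlapping groups (adjusted p = 0.0490, edgeR). In Hep3B 1 of 13 was higher and 8 were lower, with a median of -0.70, and 10 of 13 had a lower change there in the interaction. Calls made up 91.7% in Huh7, 69.2% in Hep3B and 76.9% in the interaction, against 61.8%, 40.1% and 47.1% of all genes. Albumin (ALB) changed by 0.62 ± 0.04 in Huh7 and -0.55 ± 0.05 in Hep3B, the mineral carrier AHSG by 0.61 ± 0.05 and -2.19 ± 0.06, transferrin (TF) by 0.20 ± 0.04 and -1.29 ± 0.05, and the thyroxine carrier SERPINA7 by 2.46 ± 0.15 and -0.84 ± 0.11. The Hep3B call of SERPINA7 was lost in TPM (-0.23, adjusted p = 0.311). Transthyretin (TTR), carrier of thyroid hormone and retinol, rose in both, by 0.20 ± 0.06 and 0.33 ± 0.07. A list of 7 macrophage and Kupffer cell markers also moved in these directions in its summed level, from 349 to 363 CPM up to 612 to 648 CPM in Huh7 and from 419 to 424 CPM down to 193 to 197 CPM in Hep3B. Lysozyme (LYZ), which went from 313 to 614 CPM and from 354 to 170 CPM, made up most of that sum. The other markers of the list did not all move with it. CD68 fell in both lines, from 37.4 to 15.7 CPM in Huh7 (log2 change -1.25, adjusted p = 1.06e-10) and from 66.2 to 23.4 CPM in Hep3B. CD14 rose in Huh7 from 2.37 to 4.51 CPM and went from 2.18 to 1.46 CPM in Hep3B (adjusted p = 0.0904), and PTPRC, CD163, MARCO and CSF1R averaged under 1 CPM in each group. Their part in the changes of the acute phase genes was not tested.

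**Figure D4:**
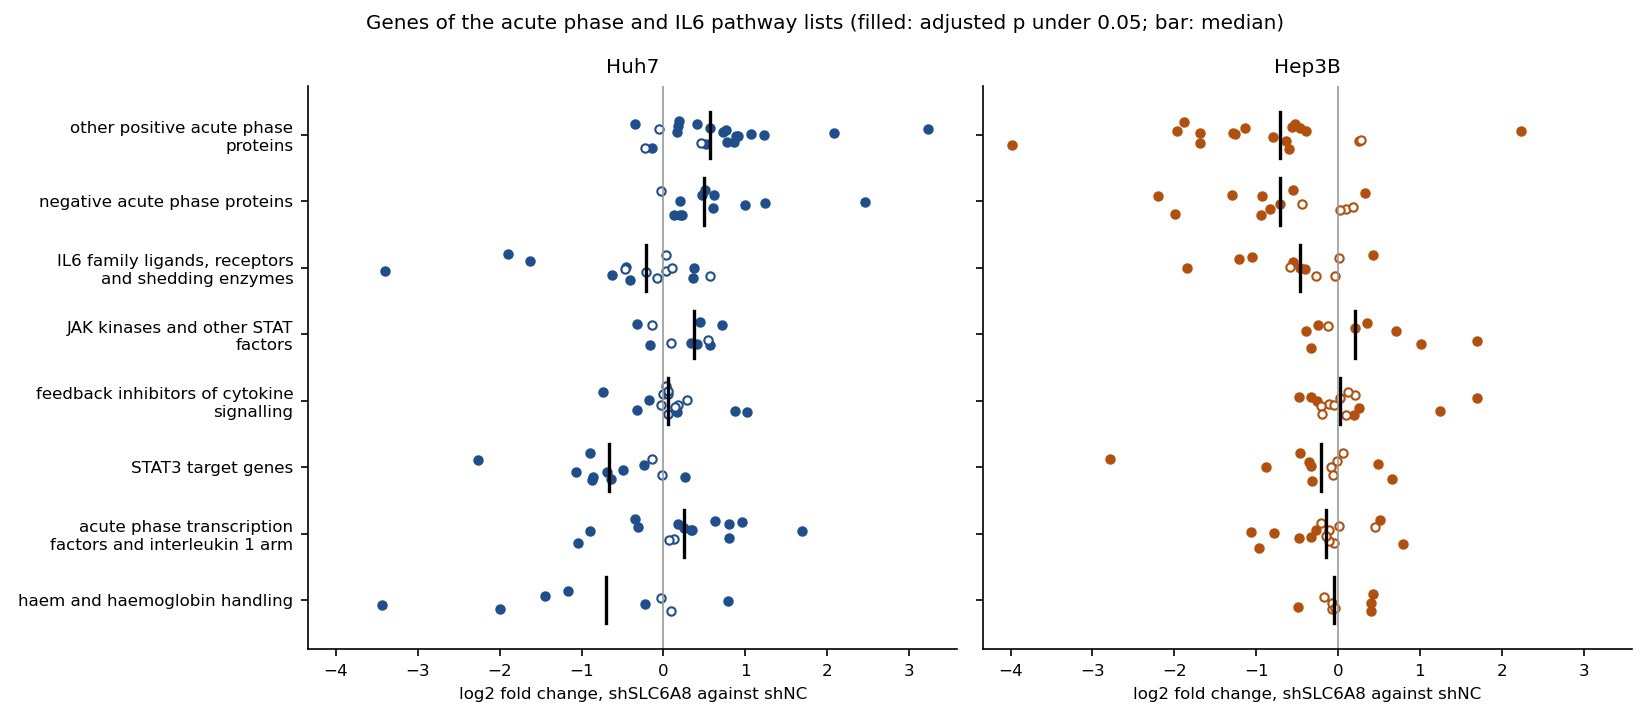
Log2 fold change of the tested genes of 8 pathway lists in Huh7 (left) and Hep3B (right); points are genes, filled where the adjusted p was under 0.05, and the black bar is the list's median. The positive and negative acute phase lists both sit mostly right of 0 in Huh7, with medians of 0.57 and 0.49, and mostly left of 0 in Hep3B, with medians of -0.71 and -0.70.

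Upstream of STAT3, the ligand IL6 itself was scarce. It averaged 0.353 ± 0.161 CPM in the Huh7 controls and 0.521 ± 0.066 with the knockdown (log2 change 0.57 ± 0.46, adjusted p = 0.294) and was not tested in Hep3B. Of the 18 genes for IL6 family ligands, receptors and shedding enzymes, 15 were tested in Huh7 with 2 higher and 6 lower (median -0.21), and 11 in Hep3B with 1 higher and 6 lower (median -0.47). Calls made up 53.3% in Huh7, below the 61.8% of all genes, and 63.6% in Hep3B, above the 40.1% of all genes. The gp130 ligand CLCF1 fell in Huh7 from 45.5 ± 1.19 to 12.2 ± 1.63 CPM (log2 change -1.90 ± 0.08) and rose in Hep3B from 7.75 ± 0.53 to 10.4 ± 0.94 (0.43 ± 0.11, adjusted p = 0.0118; 0.0552 without shNC replicate 2 and 0.0502 without shSLC6A8 replicate 1). LIF changed by -0.41 ± 0.12 in Huh7 (adjusted p = 0.00786; 0.0521 without shSLC6A8 replicate 2 and 0.207 in TPM) and by -1.85 ± 0.26 in Hep3B. IL11, another gp130 ligand, which was named after its values were seen, fell in Huh7 from 2.02 ± 0.38 to 0.193 ± 0.152 CPM (log2 change -3.40 ± 0.42, adjusted p = 2.25e-06), but it passed the filter only through its control libraries, so that call was fixed by its passing. CNTFR (1.02 to 0.328 CPM) also needed its Huh7 control libraries to pass, and IL27 (1.08 to 0.465 CPM) its Hep3B control libraries. IL11 and CNTFR add nothing to the count of 6 lower in Huh7, nor IL27 to the 6 lower in Hep3B. The shared chain IL6ST changed by 0.03 ± 0.08 in Huh7 (adjusted p = 0.781) and by -0.47 ± 0.12 in Hep3B (adjusted p = 0.0144), but did not pass there with library totals (-0.28, adjusted p = 0.106) or in TPM (-0.25, adjusted p = 0.294). The sheddase ADAM17, which releases soluble IL6R, fell by 0.63 ± 0.08 in Huh7, and ADAM10, with a like activity, changed by 0.37 ± 0.06 in Huh7 and -0.40 ± 0.08 in Hep3B. In Hep3B, ADAM10 did not pass with library totals (-0.21, adjusted p = 0.0605) or in TPM (-0.28, adjusted p = 0.359).

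Among 10 genes for JAK kinases and other STAT factors, 5 were higher and 2 lower of 10 tested in Huh7 (median 0.37), and 5 higher and 3 lower of 9 tested in Hep3B (median 0.21). Calls made up 70% in Huh7 and 88.9% in Hep3B, against 61.8% and 40.1% of all genes. JAK1 fell by 0.33 ± 0.06 in Huh7 and 0.33 ± 0.07 in Hep3B. JAK1 did not pass with library totals in Hep3B (-0.14, adjusted p = 0.174), nor in TPM in either Hep3B (-0.092, adjusted p = 0.518) or Huh7 (-0.16, adjusted p = 0.147). JAK2 rose by 0.71 ± 0.17 in Hep3B (adjusted p = 0.00770) and by 0.41 ± 0.17 in Huh7 (adjusted p = 0.0492), where 11 of 18 other settings lost the call, including the fits without shNC replicate 1 or 2 (adjusted p 0.178 and 0.0717) and without shSLC6A8 replicate 1 or 2 (0.148 and 0.162). STAT5B changed by 0.57 ± 0.07 in Huh7 and -0.40 ± 0.07 in Hep3B, the latter -0.24 in TPM (adjusted p = 0.140).

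Of 15 feedback inhibitors, all tested in each line, 3 were higher and 3 lower in Huh7 (median 0.05) and 4 higher and 3 lower in Hep3B (median 0.02). CISH (0.674 to 1.26 CPM in Huh7) needed its knockdown libraries to pass the filter there, so it adds nothing to the 3 higher. The called share was 40% in Huh7, below the 61.8% of all genes, and 46.7% in Hep3B, near the 40.1% of all genes. SOCS1, named after its values were seen, rose with SOCS3 in both lines, by 1.02 ± 0.32 in Huh7 (adjusted p = 0.0103) and 1.24 ± 0.41 in Hep3B (adjusted p = 0.0371), from 0.669 and 1.39 CPM in the controls. The Hep3B call of SOCS1 was lost in 5 settings, among them the fits without shNC replicate 1 or 2 (adjusted p 0.121 and 0.110) and without shSLC6A8 replicate 3 (0.124). SOCS2 rose in Hep3B by 1.70 ± 0.15 (adjusted p = 1.44e-05). The phosphatase PTPN2 fell in Hep3B by 0.48 ± 0.07, and the STAT inhibitor PIAS2 fell in Huh7 by 0.73 ± 0.07.

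Of 12 STAT3 target genes, all tested, 1 was higher and 9 were lower in Huh7 (median -0.67), and 2 were higher and 6 lower in Hep3B (median -0.20). Calls made up 83.3% in Huh7 and 66.7% in Hep3B, against 61.8% and 40.1% of all genes. FOS fell in both lines, by 2.26 ± 0.12 and 2.78 ± 0.14, as did MYC, by 0.90 ± 0.05 and 0.47 ± 0.04, and JUNB, by 0.49 ± 0.07 and 0.88 ± 0.07. BIRC5, which encodes survivin, changed by 0.27 ± 0.05 in Huh7 and -0.36 ± 0.08 in Hep3B, and BCL3 by -0.23 ± 0.07 and 0.49 ± 0.06. With library totals the call was lost for BIRC5 in Hep3B (-0.17, adjusted p = 0.0647) and for BCL3 in Huh7 (-0.13, adjusted p = 0.0925). In TPM the same calls were lost, at -0.035 (adjusted p = 0.716) for BIRC5 and -0.14 (adjusted p = 0.114) for BCL3. These genes answer to other signals too, so the list does not measure STAT3 activity.

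The transcription factor and interleukin 1 list had 9 higher and 4 lower of 15 tested in Huh7 (median 0.25) and 2 higher and 6 lower of 15 in Hep3B (median -0.15). Calls made up 86.7% in Huh7 and 53.3% in Hep3B, against 61.8% and 40.1% of all genes. CEBPD, a C/EBP factor induced in the acute phase, rose in both lines, from 15.6 ± 4.11 to 27.3 ± 3.35 CPM in Huh7 (log2 change 0.81 ± 0.17, adjusted p = 0.00414) and from 19.6 ± 2.12 to 34.1 ± 10.8 in Hep3B (0.80 ± 0.19, adjusted p = 0.00923). The Hep3B call was lost without shNC replicate 1 (adjusted p = 0.0695), without shSLC6A8 replicate 2 (0.0593) and with no filter (0.0855). CEBPB, known as the IL6-responsive C/EBP factor, fell in Huh7 by 1.04 ± 0.23 (adjusted p = 0.0149; 0.0521 without shSLC6A8 replicate 2) and changed by 0.45 ± 0.27 in Hep3B (adjusted p = 0.213; 0.0366 with a replicate block). CEBPA changed by 0.63 ± 0.06 in Huh7 and -0.97 ± 0.11 in Hep3B, and the interleukin 1 receptor IL1R1 by 0.96 ± 0.09 and -0.78 ± 0.08, all called.

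**Figure D5:**
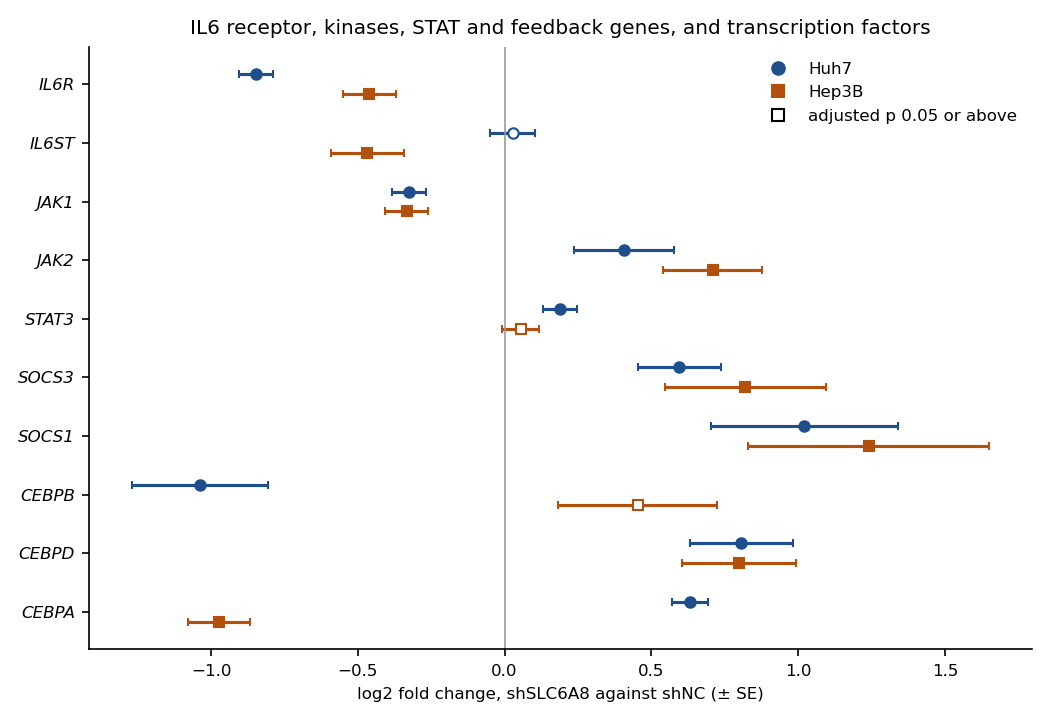
Log2 fold change, with its standard error, of 10 genes from the IL6 receptor to the nucleus in Huh7 (circles) and Hep3B (squares); open symbols had an adjusted p of 0.05 or above. IL6R and JAK1 lie left of 0 and SOCS3, SOCS1 and CEBPD right of 0 in both lines, and CEBPA lies on opposite sides, at 0.63 and -0.97.

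HP and HPX remove haemoglobin and haem from plasma, and genes that handle haem inside cells were listed beside them. In Huh7 5 of 8 tested were lower and 1 higher (median -0.70), so 75% were called against 61.8% of all genes. Haem oxygenase HMOX1 fell from 445 ± 25.0 to 41.0 ± 2.86 CPM (log2 change -3.44 ± 0.06, adjusted p = 5.64e-17) and the biliverdin reductase BLVRB by 2.0 ± 0.07. HMOX1 was far lower in Hep3B, at 14.3 ± 1.27 CPM in the controls and 12.7 ± 0.49 in the knockdown. In Hep3B 1 of 8 was lower and 3 higher (median -0.05), so 50% were called against 40.1% of all genes. There BLVRB fell by 0.48 ± 0.12, and the haem exporter FLVCR1 rose by 0.43 ± 0.07, as it did by 0.79 ± 0.08 in Huh7. The Hep3B calls were lost for BLVRB with library totals (-0.29, adjusted p = 0.0537) and for FLVCR1 in TPM (0.50, adjusted p = 0.0786).

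The members tested in both lines were ranked by their spread over the 12 libraries, and the genes with the closest pattern were sought among 11857 genes by the root mean square difference of centred log2 CPM. HP (SD 2.17 on the log2 scale) was nearest to RPS6KA3, a kinase (difference 0.43), the bile acid receptor NR1H4 (0.43) and the urea cycle enzyme ARG1 (0.50). ORM2 (SD 1.58) was nearest to A2M (0.16), the mitochondrial ornithine aminotransferase OAT (0.21) and the coagulation factor F12 (0.26). IL6R (SD 1.27) was nearest to glutathione reductase GSR (0.12), the peroxiredoxin PRDX1 (0.17) and SLC8B1 (0.17). The 12 libraries fall into 4 groups, and the likeness describes those groups.

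The authors' deposited table gave the same direction for every member tested here in each line, and differed in some calls. In the authors' deposited table for Huh7, SAA1 had an adjusted p of 0.123, and for Hep3B, HP had 0.0999 and SOCS3 0.159. The members marked significant in the authors' deposited table were HP and HPR for Huh7 and HPX, ORM1 and ORM2 for Hep3B. In the authors' deposited table every gene so marked had a log2 change of at least 1 in size, and members below that size were not marked whatever their p, such as IL6R in Huh7 with an adjusted p of 1.06e-34.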

How the data were processed

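Per the labels' protocols, 12 libraries, 3 in each of 4 groups, were made with a SMARTER mRNA kit, each from 1.3 μg of RNA. The submitters' processing notes name the build GRCh38.p14. Which aligner and counter were used is not stated in the labels or headers. Per the file headers, the 2 deposited tables (1 per line, 62703 genes each) hold expected counts, TPM, gene length, and the authors' own fold change (a ratio), log2 fold change and p-value for each line. The deposited fold changes, log2 values and p-values were used only where the authors' deposited table is named. Gene length came with the deposited tables and was not recomputed.

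The deposited estimated counts were first rounded. Genes were kept by edgeR's filterByExpr (minimum count 10), scaled by TMM and tested with edgeR 4.0.16's quasi-likelihood F-test in R 4.3.3, within each line and, for the difference between lines and the control comparison, over 12 libraries. A change was called at a Benjamini-Hochberg adjusted p under 0.05 over all genes tested. Standard errors are approximate, the log2 change divided by the root of F. Pathway changes given without a p-value all passed that threshold. The alternatives were other scalings, filters and thresholds, DESeq2 1.42.0, limma 3.58.1 (voom, and log2 of TPM + 0.1), a replicate block, copies summed, and each library left out. On simulated counts with a 2-fold change the test recovered 83.8% of altered genes for Huh7 (16709 genes tested) and 84.7% for Hep3B (15962 genes tested). At 1.5-fold it recovered 64.6% and 55.7%. For the difference between lines it recovered 60% at 2-fold and 39.8% at 1.5-fold. The simulation altered 200 genes, far fewer than were called in the data, so these rates may not carry over. No 2 libraries of the same group agreed within sampling noise (chi-square per degree of freedom 2.75 to 16.2). Intervals and floors cover counting error only.

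The 10 genes and the pathway lists were chosen with earlier results of these data known. Besides the 10, named genes were IL6ST, JAK1, JAK2, IL6, CRP, SAA2, CEBPB and CEBPD, and up to 2 genes of smallest adjusted p per list, line and direction with a mean log2 CPM of at least 1; some genes under this rule are not reported here. In the marker lists, 4 cholangiocyte markers summed to 515 to 957 CPM over the libraries, 4 stellate cell markers to 1.99 to 19.0 CPM and 4 endothelial markers to 1.34 to 5.55 CPM. CDH5 and KDR, which mark endothelium, were at 0 in all Hep3B libraries.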

Additional observations from a re-analysis of the deposited data

Results flagged for a closer look

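Of the 10 genes, 6 changed differently on knockdown in the 2 lines by the interaction test over 12 libraries (edgeR, adjusted over 18570 genes, Hep3B change minus Huh7 change in log2 units). ORM1 differed by -1.84 (adjusted p = 1.41e-09) and ORM2 by -2.13 (adjusted p = 1.35e-09), with all 3 knockdown libraries above the controls in Huh7 and all 3 below in Hep3B. HP differed by -3.11 (adjusted p = 5.50e-06) and HPR by -6.63 (adjusted p = 2.55e-05), both on few Hep3B counts. HPR passed the filter only through Huh7 shSLC6A8, so its call was fixed by its passing and supports nothing. HPX differed by 0.49 (adjusted p = 0.00745) and IL6R by 0.39 (adjusted p = 0.00351), each with the same direction in both lines. The cause of these differences was not tested, and 47.1% of all genes tested were called in this comparison.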

How the results depend on the processing

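Of the members' called changes, those of HP, HPR, HPX, ORM1, ORM2, SERPINA3, IL6R, STAT3 and SOCS3 in Huh7 and of HPX, ORM1, ORM2 and SERPINA3 in Hep3B kept their direction and call in all 18 alternatives, as did the 6 called differences between lines in all 21. HPR passed the filter only through Huh7 shSLC6A8, so its kept calls support nothing. With copies summed, HP, HPR, ORM1 and ORM2 take the value of their pair. Calls were lost for SAA1 in Huh7 (5 of 18), and in Hep3B for HP (8), SOCS3 (9) and IL6R (1). With library totals and in TPM the Hep3B changes of SERPING1, ALB, TTR, MYC and PTPN2 and the Huh7 changes of STAT3 (0.29 and 0.48), TTR and TF moved by over 1.5 times and kept their calls. In TPM alone the same held for ORM1 (0.54), IL6R (-0.49), FGA, ADAM10, ADAM17, BIRC5 and JUNB in Huh7 and for FGA and LIF in Hep3B. The Hep3B STAT3 change gained a call with library totals (0.24, adjusted p = 0.0159). Counts that moved by more than 1.5 times were the genes lower in Huh7 in TPM (3054), the genes higher in Hep3B with library totals (6230), in TPM (4868) and at an adjusted p under 0.01 (1774), the genes lower in Hep3B with library totals (1941) and in TPM (1526), and the members lower in Hep3B in TPM (2). Leaving out single libraries gave 1 to 2 members higher in the Hep3B controls, the second being HPR without Hep3B shNC replicate 1 (1.61, adjusted p = 0.0406). Values near 0 changed sign there: STAT3 between the controls ranged from -0.092 to 0.011 and IL6ST in Huh7 from -0.071 to 0.098 over the libraries left out. HPR between the controls was -2.11 when summed with HP, by construction the value of the pair. A replicate block left 10125 calls in Huh7, 6221 in Hep3B, 8382 for the difference and 14926 between controls, took the calls of SOCS3 in Hep3B (adjusted p = 0.0665) and JAK2 in Huh7 (adjusted p = 0.0796), and gave one to CEBPB in Hep3B (0.41, adjusted p = 0.0366). Same-numbered libraries did not visibly deviate together (correlations -0.06 to 0.04 in Huh7 and -0.09 to 0.09 in Hep3B). Differently numbered Hep3B libraries ranged from -0.18 to 0.21, so the check showed no pairing but cannot exclude one. Depth limits HP, HPR, SAA1 and SOCS3 in Hep3B, at 0 to 36 counts per library. The causes of lost calls were not tested.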
